A study of Mus musculus with 12 samples.

Results

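The immediate early genes Egr1, Egr2, Egr3, Egr4, Ier2, Ier3, Nr4a1, Nr4a2, Nr4a3 and Myc were examined for cJun and H3K4me3 peaks in Min6, a β cell line that was derived from a mouse insulinoma. All peaks within 50 kb of the 10 gene bodies were taken from 4 deposited lists, with genes placed by the GENCODE vM21 annotation of GRCm38. This gave 5 of 4960 cJun peaks and 41 of 19372 H3K4me3 peaks in DMSO, and 1 of 1632 cJun peaks and 38 of 19032 H3K4me3 peaks with JNK inhibitor (JNKi). The cells were kept for 48 hours in 20 µM SP600125, which blocks the cJun N-terminal kinases (JNK) and is known to act on other kinases too, or in its solvent DMSO. CUT&RUN, in which an antibody-tethered nuclease releases the bound DNA, was then run with an antibody against cJun, against H3K4me3 (the positive control) or with IgG (the negative control). The 12 samples formed 6 groups of 2 biological replicates, and the IgG samples had no list used here.

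Immediate early genes are transcribed within minutes of a stimulus without new protein synthesis, mostly through factors already bound to their promoters, such as serum response factor with its ETS partners, and CREB. In β cells, glucose, calcium and cAMP are known inducers. The EGR proteins are zinc finger factors that bind GC-rich sites, the NR4A proteins are orphan nuclear receptors, Myc is a basic helix-loop-helix factor that pairs with Max, and Ier2 and Ier3 are small proteins linked to growth and to stress responses. cJun is a subunit of AP-1, binds TGACTCA with Fos partners and CRE letters with ATF partners, and is activated by JNK. H3K4me3 marks the nucleosomes around the start sites of active genes.

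Each list held peaks that were called in both replicates, with a −log10 p for each replicate and an irreproducible discovery rate (IDR), an estimate of the chance that a peak does not replicate. A higher −log10 p is stronger evidence of enrichment over IgG, not a measure of its size, and the peak itself carries the lower of its replicate values. Within a list, rank 1 is the highest −log10 p. The replicate columns carry no number and are called first and second here. The paper states the same sequencing depth for every sample, but the depth reached behind each list is unknown, as no reads were analysed here. Values were compared between treatments only through ranks, widths and overlaps. Whether a peak is listed has no replicates, as each treatment had 1 list. Replicate widths and ranks are given as a description with no test, since with 2 against 2 values an exact two-sided permutation test cannot go below p = 0.333. H3K4me3 lay over a start site of 9 of 10 β cell markers (Ins2, Pdx1 and Mafa among them, Ins1 not), 1 of 5 markers of other islet cells (Gcg), 0 of 5 acinar, 1 of 3 duct (Krt7) and 0 of 4 immune and stromal markers, with the same counts in both treatments.

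A total of 4 of the 10 genes, Egr1, Nr4a2, Nr4a3 and Myc, had a cJun peak within 50 kb in DMSO, and 1, Ier2, had a cJun peak with JNKi. Across 21755 protein-coding genes, 28.4% had a cJun peak within 50 kb in DMSO and 12.2% in JNKi. Among genes with H3K4me3 over a start site in DMSO, as 9 of the 10 had, the shares were 38.4% and 16.5%, close to those of the 10 genes. The 4 genes with a peak in DMSO had none with JNKi, a pattern found in 18.2% of all coding genes and in 64.1% of the 6172 coding genes with a DMSO peak. The pattern of Ier2, a peak with JNKi alone, was found in 2.02% of coding genes. None of the 10 genes (0 of 10) had a cJun peak in both treatments, against 10.2% of coding genes. The remaining 5 genes, Egr2, Egr3, Egr4, Ier3 and Nr4a1, had no cJun peak within 50 kb in either list.

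**Figure D1:**
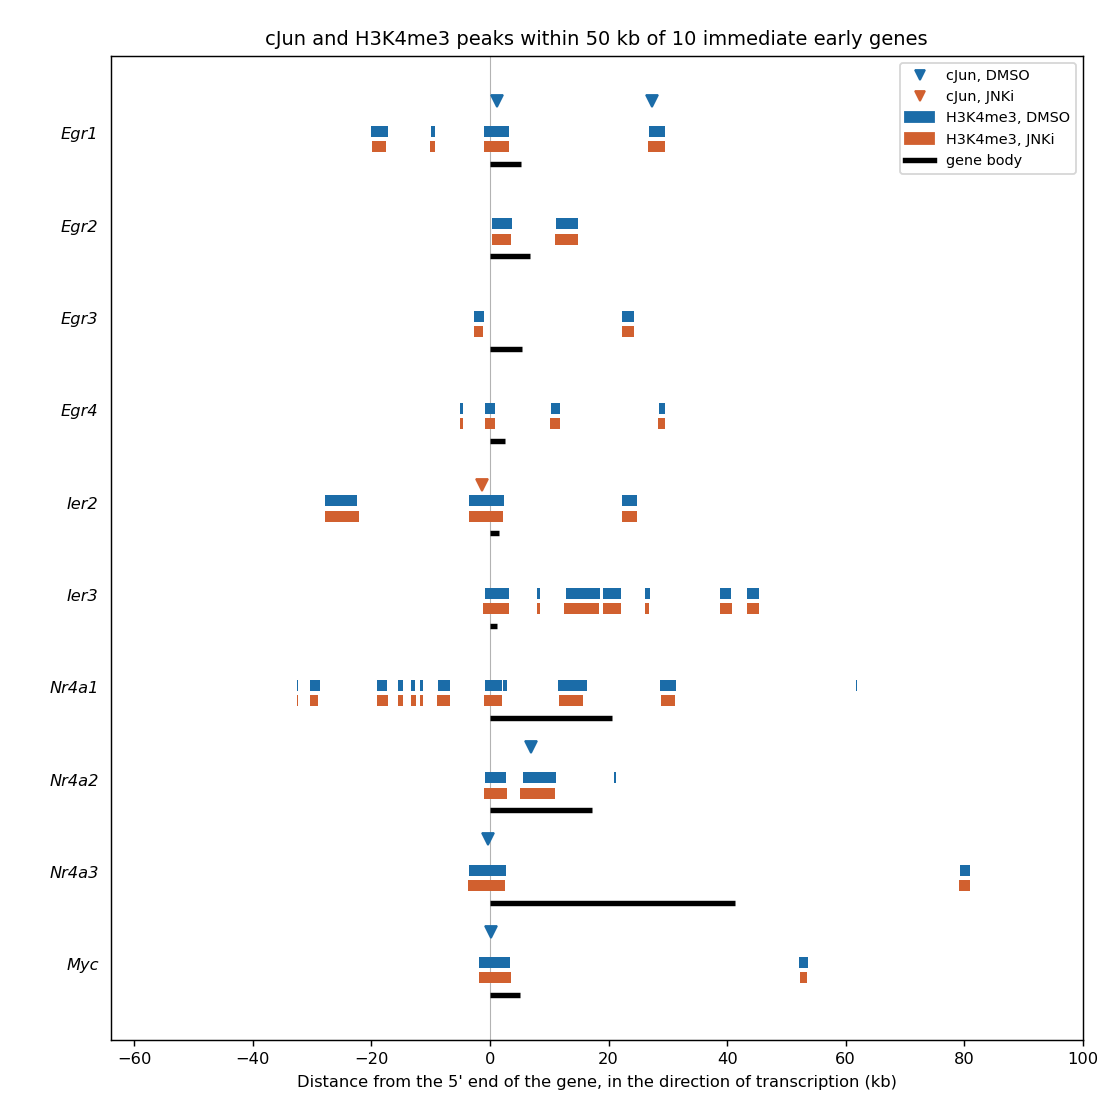
Peaks near the 10 genes, with distance from the 5′ end of each gene in kb on the x axis. Triangles are cJun peaks, blocks are H3K4me3 peaks to scale, and black bars are gene bodies. The 5 DMSO cJun peaks (blue) and the single JNKi cJun peak (orange, at Ier2) all lie on an H3K4me3 block, and the H3K4me3 blocks of the treatments nearly coincide.

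Apart from a second Egr1 peak, 26135 bp downstream of a start site, the cJun peaks were close to start sites of the genes. In all 5 genes with a peak, at least 1 peak lay within 3 kb of a start site of the gene. This was at 4 of 10 genes in DMSO, against 7.9% of coding genes, and at 1 of 10 with JNKi, against 2.91%. These shares are over all coding genes, with or without H3K4me3, and were not computed for marked genes alone. The member gene had the nearest protein-coding start site for all 6 cJun peaks. All 5 DMSO peaks overlapped an H3K4me3 peak of the same treatment, against 53.4% of the whole DMSO cJun list, and so did the JNKi peak (1 of 1), against 55.5%. The whole lists were not limited to peaks near start sites, as nearly all of these were, so the shares are not like for like. None of the 5 DMSO peaks was overlapped by a JNKi cJun peak (23.6% of the DMSO list was), and the JNKi peak (0 of 1) was not overlapped by a DMSO cJun peak (72.0% of the JNKi list was). Only the Egr1 promoter peak had an IDR of at most 0.05. The DMSO list was the longer one, and its 1632 highest peaks, as many as the JNKi list held, still included 4 peaks at 3 of the genes.

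**Figure D2:**
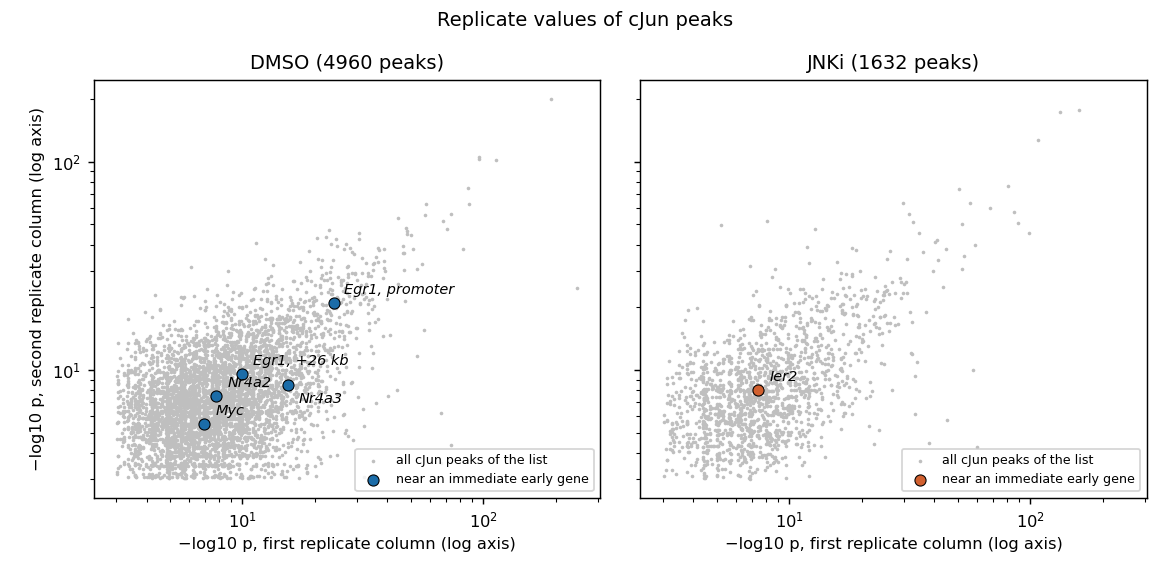
Replicate −log10 p of every cJun peak of the DMSO list (left) and the JNKi list (right), first against second replicate column on log axes, with the peaks near immediate early genes in colour. The Egr1 promoter peak stands in the upper part of the DMSO cloud, and the peaks at Nr4a2, Nr4a3, Myc and Ier2 lie within the bulk of their lists.

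Among the orphan nuclear receptors, Nr4a3 carried the higher-ranked cJun peak. The gene is at chr4:48045153-48086447 on the + strand, and its DMSO peak, chr4:48044373-48045108, was 736 bp wide and ended 45 bp from the gene body. The replicates gave −log10 p of 15.5 and 8.43, the first above the second, with an IDR of 0.185 and rank 1158. The summit was 213 bp upstream of the start site. With JNKi, the nearest cJun peak was 1740645 bp away. The first stretch below is the 201 bases around the summit, which hold no AP-1 or CRE site, and the second runs from the 3′ end of the peak into the start of the gene. The capitals mark TGACG on either strand, the opening letters of the CRE. The peak held 3 copies, 53 to 79 bp upstream of the start site and outside the summit stretch.
Nr4a3 summit, chr4:48044840-48045040, + strand, GRCm38: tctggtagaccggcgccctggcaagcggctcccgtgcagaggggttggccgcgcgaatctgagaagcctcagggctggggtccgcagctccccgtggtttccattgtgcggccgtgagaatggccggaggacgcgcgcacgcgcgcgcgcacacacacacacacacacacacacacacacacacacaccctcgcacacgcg
Nr4a3 promoter, chr4:48045055-48045182, + strand, GRCm38: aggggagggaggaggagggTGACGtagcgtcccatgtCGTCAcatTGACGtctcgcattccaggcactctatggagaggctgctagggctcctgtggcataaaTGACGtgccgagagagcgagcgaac

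Nr4a2, also an NR4A nuclear receptor and essential for dopamine neurons, is at chr2:57106830-57124003 on the − strand. Its DMSO cJun peak, chr2:57116537-57117513, lay inside the gene record, 1885 bp upstream of the nearer of its start sites, the inner promoter. The peak was 977 bp wide, with replicate widths of 798 and 486 bp. The replicate −log10 p were 7.80 and 7.51, close to each other, with an IDR of 0.333 and rank 1549. The nearest JNKi cJun peak was 86863 bp from the gene. The 201 bases around the summit are shown for the TGACG letters on their 3′ side, 73 and 93 bp from the summit.
Nr4a2 summit, chr2:57116823-57117023, − strand, GRCm38: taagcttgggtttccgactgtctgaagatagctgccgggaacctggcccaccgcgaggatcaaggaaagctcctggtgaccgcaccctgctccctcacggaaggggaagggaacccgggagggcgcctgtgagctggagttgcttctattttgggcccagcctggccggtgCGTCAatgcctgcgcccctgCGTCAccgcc

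Nr4a1, the receptor also known as Nur77, is at chr15:101254269-101274795 on the + strand and had no cJun peak within 50 kb. The nearest lay 103921 bp from the gene in DMSO and 151197 bp with JNKi. It had the most H3K4me3 peaks of the 10 genes, 12 in DMSO and 10 with JNKi. A peak lay over the outer start site at the 5′ end of the gene and another over the inner start site. The inner peak had the largest difference in width between treatments among the 11 start-site peaks described below. In DMSO it was chr15:101265690-101270624, 4935 bp wide (4164 and 4935 bp in the replicates), with −log10 p of 566 and 645 and rank 111. With JNKi it was 4065 bp wide (3955 and 4020 bp), with −log10 p of 489 and 394 and rank 2100. Both JNKi replicates were narrower than both DMSO replicates, and the merged width was 82.4% of that in DMSO (log2 ratio −0.28). The IDR was 0.306 in DMSO and 0.00186 with JNKi, and 120 of the 200 highest peaks of the DMSO H3K4me3 list likewise had an IDR above 0.05. The RefSeq promoter under this peak is shown because it holds 4 copies of TGACG on the other strand and an EGR site, GCGGGGGCG, also on the other strand (both in capitals). None of these letters lay under a cJun peak.
Nr4a1 promoter, chr15:101266596-101266875, + strand, GRCm38: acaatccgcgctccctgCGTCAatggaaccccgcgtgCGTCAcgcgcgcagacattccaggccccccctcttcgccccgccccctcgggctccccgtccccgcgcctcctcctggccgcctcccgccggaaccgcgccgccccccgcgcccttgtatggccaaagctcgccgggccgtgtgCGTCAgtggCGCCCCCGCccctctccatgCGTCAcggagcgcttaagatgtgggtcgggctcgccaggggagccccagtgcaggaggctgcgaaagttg

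Myc is at chr15:61985391-61990374 on the + strand. Its DMSO cJun peak, chr15:61985300-61985996, was the only one of the 6 that lay over a start site, with its summit 24 bp upstream. It also had the lowest −log10 p, at 6.96 and 5.53, with an IDR of 0.729 and rank 2871 of 4960. The peak was 697 bp wide, and 694 and 493 bp in the replicates. With JNKi the nearest cJun peak was 578626 bp away. The stretch around the summit is shown up to 30 bases past the start site. It holds none of the searched motifs, so no letters are in capitals.
Myc summit, chr15:61985267-61985420, + strand, GRCm38: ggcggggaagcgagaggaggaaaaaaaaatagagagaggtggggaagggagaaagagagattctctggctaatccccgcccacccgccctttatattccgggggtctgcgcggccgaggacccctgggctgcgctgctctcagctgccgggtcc

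Ier2 (chr8:84661331-84662852, − strand) was the gene with a cJun peak in JNKi alone. The peak, chr8:84663929-84664403, was 475 bp wide, with its summit 1390 bp upstream of the start site. The summit was nearer, at 886 bp, to the start of Gm26664, a gene that does not code for protein. Its replicate widths were 203 and 423 bp and its −log10 p were 7.45 and 8.05. With an IDR of 0.243 and rank 575 of 1632, it was a mid-list peak. In DMSO the nearest cJun peak was 168833 bp from the gene. The summit stretch holds 1 copy of TGACG, in capitals, 78 bp from the summit. Ier3, a stress-response gene at chr17:35821684-35822923 on the + strand, had its nearest cJun peak 119244 bp away in DMSO and 2427064 bp away with JNKi.
Ier2 summit, chr8:84664142-84664342, − strand, GRCm38: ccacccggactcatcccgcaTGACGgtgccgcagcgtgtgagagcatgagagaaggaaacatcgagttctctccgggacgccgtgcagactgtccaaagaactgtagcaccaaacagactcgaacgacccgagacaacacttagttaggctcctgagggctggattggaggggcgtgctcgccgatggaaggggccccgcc

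Of the EGR genes, Egr2 (chr10:67535475-67542188, + strand), Egr3 (chr14:70077203-70082614, + strand) and Egr4 (chr6:85511121-85513589, − strand) had no cJun peak within 50 kb. The nearest DMSO peak was 439116 bp from Egr2, 430606 bp from Egr3 and 73500 bp from Egr4. With JNKi the distances were 1670477, 430853 and 1763575 bp in the same order. The RefSeq promoters of Egr2 and Egr4 are shown as promoters with H3K4me3 and TGACG letters but no cJun peak. The Egr2 promoter also holds a CArG box, the serum response factor site (CC, 6 A or T, GG), CCATATATGG, which is in capitals beside the copies of TGACG.
Egr2 promoter, chr10:67537619-67537898, + strand, GRCm38: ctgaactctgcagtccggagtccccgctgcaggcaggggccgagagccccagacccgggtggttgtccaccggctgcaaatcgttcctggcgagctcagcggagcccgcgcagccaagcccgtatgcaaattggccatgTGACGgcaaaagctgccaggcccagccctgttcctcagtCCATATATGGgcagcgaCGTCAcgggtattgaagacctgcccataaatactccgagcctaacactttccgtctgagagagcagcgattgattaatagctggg
Egr4 promoter, chr6:85513560-85513839, − strand, GRCm38: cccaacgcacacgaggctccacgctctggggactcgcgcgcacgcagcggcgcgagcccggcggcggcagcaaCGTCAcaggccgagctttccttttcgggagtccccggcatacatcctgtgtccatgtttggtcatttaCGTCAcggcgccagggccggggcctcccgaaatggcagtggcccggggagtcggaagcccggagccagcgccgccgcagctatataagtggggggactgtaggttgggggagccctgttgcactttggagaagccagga

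No canonical AP-1 site (TGACTCA or TGAGTCA, either strand) lay within 100 bp of the summit in the 5 DMSO peaks or the JNKi peak, and none lay anywhere in these peaks. Within 100 bp of the summit, 10% of all DMSO cJun peaks and 12.1% of all JNKi cJun peaks held one, and over whole peaks 32.6% and 35.0% did. A site was counted only if all its letters lay within the window. The full CRE (TGACGTCA), EGR (GCGTGGGCG or GCGGGGGCG), CArG, E-box (CACGTG) and NBRE (AAAGGTCA, the monomer site of NR4A receptors) motifs were at 0 within these summit windows too. In the whole lists they were rare, at 0.807% to 3.47% of DMSO peaks. TGACG, which is contained in the CRE and was searched after the sequences had been seen, lay in the summit windows of 2 of 5 DMSO peaks, those of Nr4a2 and the Egr1 promoter, against 13.2% of the DMSO list, and in that of the Ier2 peak (1 of 1), against 15.4% of the JNKi list. Over whole peaks, 3 of 5 DMSO peaks held TGACG, against 35.2% of the DMSO list, and the JNKi peak did (1 of 1), against 37.6% of the JNKi list.

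Promoter windows of 250 bases before to 50 after the start were given by RefSeq (GRCm38.p6) for 6 of the 10 genes, Egr2, Egr4, Ier3, Nr4a1, Nr4a2 and Nr4a3. TGACG, which was searched after the sequences had been seen, was found in a promoter of 5 of these 6 genes, all but Ier3. Over 27025 genes the share was 23.0%, on the same both-strand search over all windows of a gene. The AP-1 site and the full CRE were found in 0 of 6, against 5.95% and 2.03% of genes. The CArG box was found in Egr2 alone and the EGR site in Nr4a1 alone, against 1.81% and 3.93% of genes. Of the 5 genes with TGACG at the promoter, Nr4a2 and Nr4a3 had a DMSO cJun peak within 3 kb of a start site and Egr2, Egr4 and Nr4a1 did not. Only the Nr4a3 window itself was overlapped by the cJun peak. The Nr4a2 window lay at the outer promoter, and its cJun peak lay at the inner one, for which there was no window.

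Egr1, which encodes the best known of the EGR factors, is at chr18:34859823-34864984 on the + strand and had the highest-ranked cJun peak of the set. This DMSO peak, chr18:34860889-34861104, had −log10 p of 23.9 and 21.0, an IDR of 0.00336 and rank 113 of 4960. Its summit was 211 bp upstream of the inner start site of the gene. Of the 496 highest DMSO cJun peaks, 10% of the list, 66.9% were overlapped by a JNKi peak, and this peak was not: the nearest JNKi cJun peak was 950893 bp from the gene. The peak was narrow, at 216 bp (215 and 213 bp in the replicates). Of all DMSO cJun peaks, 344 (6.94%) were under 300 bp wide, and 24 of the 207 peaks with an IDR of at most 0.01 were. A second Egr1 peak, chr18:34886979-34887467, lay 26135 bp downstream of the start site. It was 489 bp wide, with replicate widths of 484 and 213 bp, −log10 p of 9.95 and 9.62, an IDR of 0.182 and rank 858. It held an EGR site centred 97 bp from its summit, the end of which lay past 100 bp, and another centred 108 bp from it. Over whole peaks this was the only 1 of the 5 DMSO peaks with an EGR site, against 3.04% of the DMSO list.

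H3K4me3 near the 10 genes was mostly shared by the treatments, as it was over the whole lists. Of the 41 DMSO peaks, 38 were overlapped by a JNKi peak (93.4% over the whole list), as were 38 of 38 JNKi peaks by a DMSO peak (94.3%). A start site was covered in 9 of 10 genes in DMSO, against 57.3% of coding genes, and in 9 of 10 with JNKi, against 56.9%. The exception was Egr3, whose nearest H3K4me3 peak lay 1058 bp from the gene in DMSO, with −log10 p of 9.96 and 37.7, and 1183 bp away with JNKi, with 49.3 and 35.9. Each treatment had 11 start-site peaks, with a peak at both the inner and the outer promoter of Nr4a1 and Nr4a2. The 3 peaks found in DMSO alone were small: 2 near Nr4a1, of 764 and 221 bp, and 1 near Nr4a2, of 383 bp. For 20 of the 41 DMSO peaks, the nearest coding start site belonged to a neighbouring gene, such as Reep2 beside Egr1 or Grasp beside Nr4a1.

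Start-site H3K4me3 of the NR4A genes, Ier2 and Myc covered more bases than that of most coding genes with the mark. Summed over its start-site peaks, Nr4a2 had 9134 bp in DMSO, at the 99.4th percentile of coding genes with the mark. Nr4a1 had 7801 bp (98.9), Nr4a3 6238 bp (97.2), Ier2 5868 bp (96.3) and Myc 5262 bp (94.3). The sums of Nr4a2 and Nr4a1 join separate inner and outer peaks, of 5602 and 3532 bp and of 4935 and 2866 bp. Their percentiles thus describe bases covered, not the width of a single peak, and the other genes had a single start-site peak each. Egr1 with 4211 bp (86.3), Ier3 with 4033 bp (84.0) and Egr2 with 3420 bp (72.3) followed, and Egr4 with 1718 bp was at the 16.6th percentile. The median of the 9 genes was 5262 bp in DMSO and 5435 bp with JNKi, against 2695 and 2746 bp over 12294 coding genes.

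**Figure D3:**
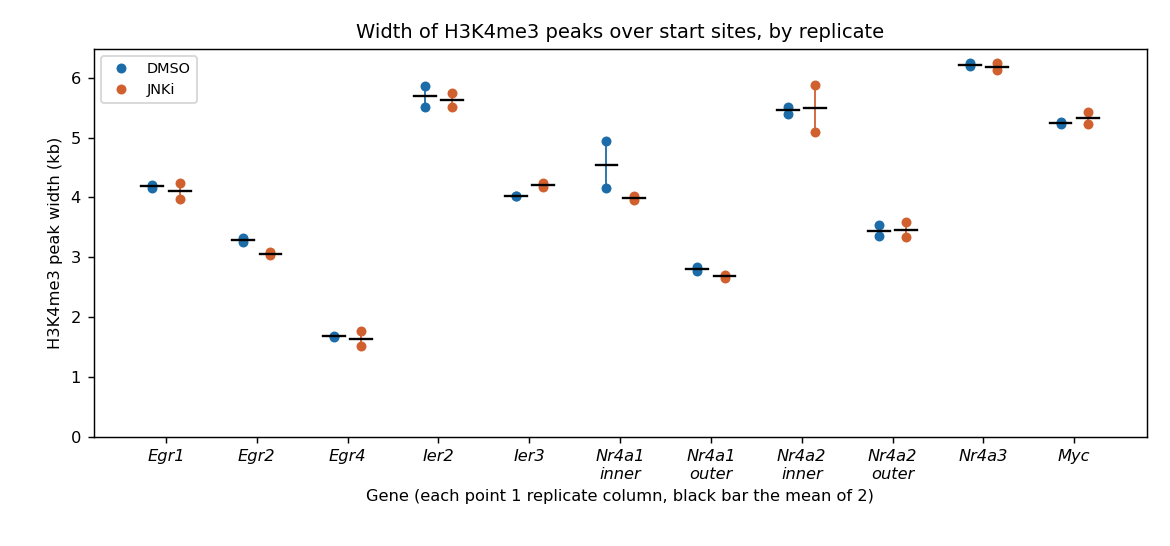
Width in kb of the 11 H3K4me3 peaks over start sites of the genes, with each point a replicate column, the black bar the mean of 2, and DMSO in blue and JNKi in orange. Outer and inner name the upstream and downstream promoters of Nr4a1 and Nr4a2, and the gap between DMSO and JNKi at the Nr4a1 inner promoter is the largest.

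These widths differed little between treatments. The median log2 ratio of JNKi to DMSO width was 0.01 over the 9 genes, with a range of −0.15 to 0.10, and also 0.01 over the 12294 coding genes, of which the central 95% ran from −0.31 to 0.32. Both JNKi replicates were wider than both DMSO replicates at 1 of 11 peaks, against 20.6% of 12354 coding genes, each counted by its highest DMSO start-site peak. This was Ier3, at 4030 and 4027 bp in DMSO and 4234 and 4169 bp with JNKi. Both were narrower at 3 of 11 peaks, against 14.9%, namely both Nr4a1 peaks and Egr2, where the replicates measured 3253 and 3325 bp in DMSO and 3030 and 3086 bp with JNKi. The count over coding genes leaves out the outer peaks of Nr4a1 and Nr4a2, and the Nr4a1 outer peak is 1 of these 3. At the Nr4a1 outer promoter the difference was small, with 2829 and 2772 bp in DMSO and 2707 and 2661 bp with JNKi. The merged peak there was wider with JNKi (2970 against 2866 bp). At the other 7 peaks the replicates of the treatments overlapped. Nr4a3, at 6238 and 6195 bp in DMSO and 6241 and 6126 bp with JNKi, and Myc, at 5262 and 5222 against 5435 and 5221 bp, were among these, and each had its cJun peak in the DMSO list only.

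**Figure D4:**
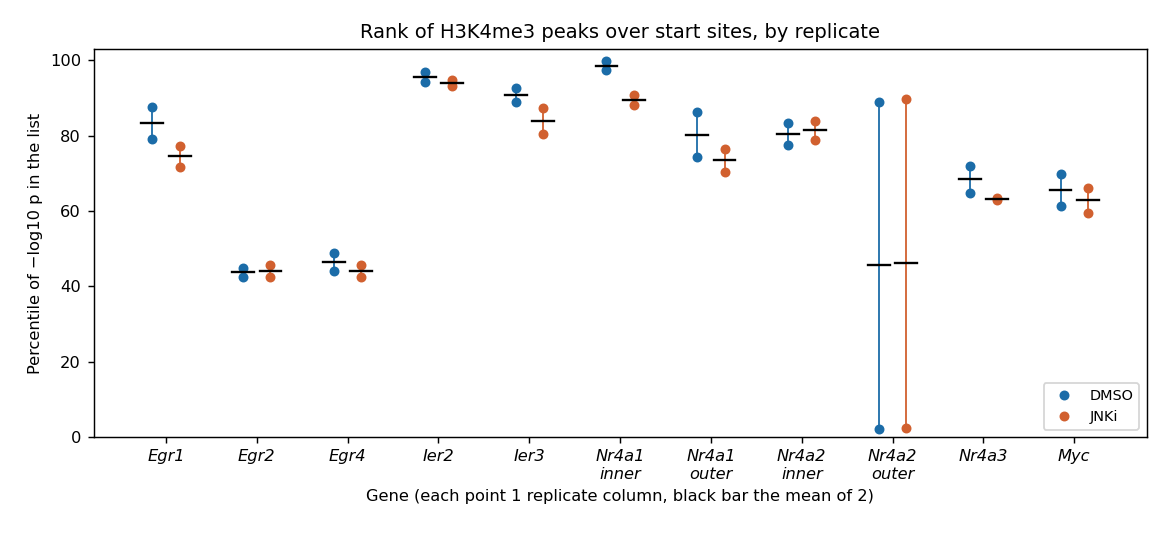
Percentile of the same 11 H3K4me3 peaks by −log10 p within their own list, per replicate column (100 is the highest peak), with the black bar the mean of 2. The JNKi points of Egr1, Ier3, Nr4a1 inner and Nr4a3 lie below their DMSO points, and the replicates of the Nr4a2 outer promoter span most of the axis in both treatments.

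By rank, 4 of 11 peaks were lower in both JNKi replicates than in both DMSO replicates, and 0 of 11 were higher. Over the 12354 coding genes, each counted by its highest DMSO start-site peak, the shares were 22.5% and 14.0%. The outer peaks of Nr4a1 and Nr4a2, which such a count leaves out, were neither lower nor higher. A percentile of 100 is the highest peak of a replicate column. Nr4a1 inner stood at 97.5 and 99.8 in DMSO and at 90.8 and 88.3 with JNKi. Egr1 stood at 79.2 and 87.6, then at 71.8 and 77.4. Ier3 was at 92.6 and 88.9 in DMSO and at 80.5 and 87.4 with JNKi. Nr4a3 was at 72.0 and 64.9, then at 63.4 and 62.9. The difference in mean percentile, JNKi minus DMSO, was −9.09 at Nr4a1 inner, −8.80 at Egr1, −6.84 at Ier3 and −5.28 at Nr4a3. All 4 differences lay inside the central 95% of all 12354 pairs, which ran from −18.4 to 25.1 with a median of −0.70. Ier2, the gene with the JNKi cJun peak, was near the top in both treatments, at 94.3 and 97.0 in DMSO and 93.2 and 94.9 with JNKi.

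Some H3K4me3 values rested on replicates that stood far apart. At the outer promoter of Nr4a2, −log10 p was 4.67 and 355 in DMSO and 478 and 4.63 with JNKi, although the widths were alike at 3532 and 3355 bp and at 3591 and 3336 bp. With JNKi this also held for a peak at Nacc1 near Ier2, with 556 and 4.11, and a peak at Fbxo41 near Egr4, with 3.11 and 99.0. Replicates differed by more than 10-fold in −log10 p in 2.11% of DMSO and 2.07% of JNKi H3K4me3 peaks, and in 1 of 41 and 3 of 38 of the peaks near the 10 genes. The ranks of these peaks follow the low replicate, and why the replicates differed was not tested.

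Other immediate early genes and the partners of the 10 genes were counted in the same way. Of 34 other immediate early genes, among them the Fos, Jun, Klf and Dusp families, 23 had a cJun peak within 50 kb in DMSO and 16 with JNKi. Over all coding genes these shares were 28.4% and 12.2%. Among genes with H3K4me3 over a start site in DMSO, as 32 of the 34 had, they were 38.4% and 16.5%. All 16 also had one in DMSO, against 10.2% of coding genes with a peak in both. A further 7 had a peak in DMSO alone, against 18.2%, and 0 in JNKi alone, against 2.02%. Within 3 kb of a start site the counts were 16 and 12, against 7.9% and 2.91% of coding genes. The highest DMSO peaks of this list were near Dusp1, a phosphatase of MAP kinases (rank 186, and 84 in JNKi), Trib1, a pseudokinase (rank 191, and 230), and Npas4, an activity-induced transcription factor (rank 202, and 109). Each of these 3 peaks was overlapped by a JNKi peak. Taking the highest DMSO peak of each of the 23 genes, 12 were overlapped by a JNKi peak and 11 were not. Over all DMSO cJun peaks, not only the highest near a gene, 23.6% were overlapped. The 11 ranked from 972 (Klf2) to 3116 (Jund), a range that also holds the peaks at Nr4a2, Nr4a3 and Myc. Among the 11 genes, Jund (rank 27 in JNKi), Maff (rank 98), Nfil3 and Per1 had a JNKi peak elsewhere within 50 kb. Nr4a2, Nr4a3 and Myc, like the 7 genes with a peak in DMSO alone, had none. Among 19 regulators and partners, such as Srf, Elk1, Nab2, Rxra and Max, 11 had a cJun peak in DMSO, against 28.4% of coding genes. With JNKi 5 did, against 12.2%, and all 5 had one in both, against 10.2%. Among genes with H3K4me3 over a start site in DMSO, as 17 of the 19 had, the shares were 38.4% in DMSO and 16.5% with JNKi. Within 3 kb of a start site 2 and 1 had one, against 7.9% and 2.91%. The highest were near Mycl (rank 231, and 110 in JNKi) and Mxi1, a Max partner that opposes Myc (rank 401, and 781). Rxrb, a retinoid X receptor, came next (rank 585, with no JNKi peak within 50 kb). The DMSO summits lay 40506 bp from a start site of Mycl, 73806 bp from Mxi1 and 3887 bp from Rxrb.

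**Figure D5:**
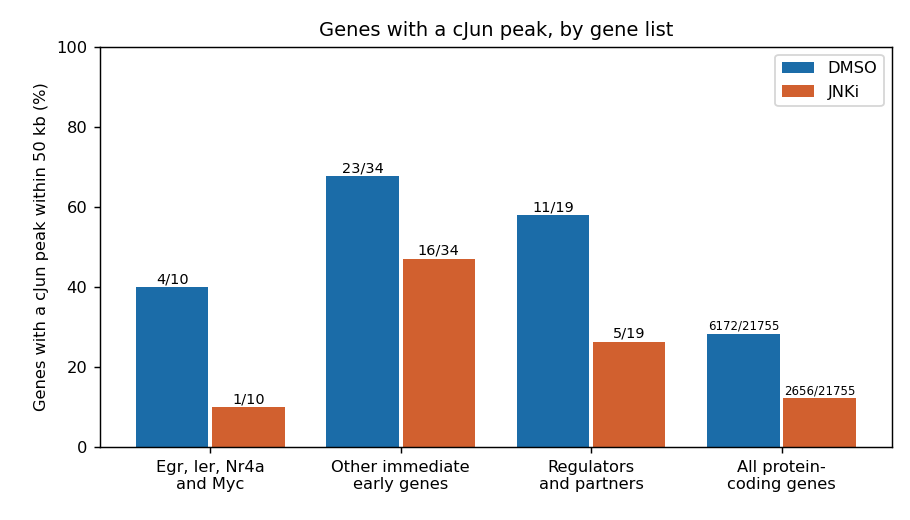
Percentage of genes with a cJun peak within 50 kb in the DMSO list (blue) and the JNKi list (orange), for the 10 genes, 34 other immediate early genes, 19 regulators and partners and all 21755 protein-coding genes. Numbers over the bars are genes with a peak over genes counted, from 4 of 10 and 1 of 10 for the Egr, Ier, Nr4a and Myc genes to 6172 and 2656 of all genes.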

How the data were processed

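CUT&RUN peaks of Min6 cells were analysed in 12 samples of 6 groups of 2 biological replicates, grouped by their labels. The authors trimmed reads with Trimmomatic, aligned them to GRCm38 with Bowtie2 2.4.2, filtered them with SAMtools 1.16, called narrow peaks per replicate against IgG with MACS2 2.2.7.1, and paired the replicates with IDR. The 4 deposited lists of 20 columns hold −log10 p-values (peak and replicate), −log10 IDR values, a score scaled from the IDR, and peak and summit positions. The lowest −log10 p of each list corresponds to a p cut-off of 0.001, and lists were not limited by IDR. As the methods name the MACS2 defaults, which set a q-value limit instead, the setting behind a listed peak is unknown.

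From these lists, peaks within 50 kb of gene bodies, overlaps of at least 1 bp, start-site cover, ranks, percentiles and widths were computed, with all protein-coding genes outside chromosome Y as background. Motifs were exact letters on both strands within 100 bp of a summit. Reference letters came from GRCm38 and RefSeq promoters and were trimmed to at most 30 bases of an annotated UTR. The text names all 10 genes with every cJun peak and start-site H3K4me3 peak, and up to 3 genes of each other list by DMSO rank. Members and lists were chosen with earlier results of these data known. All 10 checks of the overlap, window and motif steps on simulated data were recovered. Python 3.11.15, numpy 2.4.6, pandas 2.3.3, pysam 0.24.0 and matplotlib 3.10.9 were used. Alternatives covered the gene window, IDR, list length, overlap, motif window and replicate column.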

Additional observations from a re-analysis of the deposited data

How the results depend on the processing

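Of 62 alternatives to 17 values, 36 left the value within its margin and 26 moved it. An IDR of at most 0.05 or 0.01 left 1 DMSO cJun peak at 1 gene (Egr1) and 0 JNKi peaks at 0 genes. A window of 100 kb gave 8 DMSO cJun peaks, 2 JNKi cJun peaks at 2 genes, and 59 JNKi H3K4me3 peaks, and 10 kb gave 21 and 19 H3K4me3 peaks in DMSO and JNKi. Requiring cJun and H3K4me3 summits within 200 bp left 1 DMSO and 0 JNKi cJun peaks at H3K4me3. The TGACG search, added after seeing the data, gave 2 DMSO peaks and 1 JNKi peak with a motif. The median log2 width ratio was 0.047 from the first replicate column alone and −0.067 from the second. From covered bases within 3 kb and 50 kb of the genes it was −0.0073 and −0.0029, so that this median, close to 0, has no stable sign. The share of genes with a cJun peak was 38.4% in DMSO and 16.5% in JNKi among genes with H3K4me3 over a start site, 15.2% and 6.05% within 10 kb, and 40.5% and 19.04% within 100 kb. No paired analysis was possible because each list merges both replicates and its replicate columns carry no number. Peaks were listed only if called in both replicates, so a peak called in 1 replicate alone is missing from them, and depth and IgG background were not analysed here.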
